A study of Mus musculus with 6 samples.

Results

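The matrix metalloproteinases (MMPs) and their tissue inhibitors (TIMPs) were followed in 3T3-L1 adipocytes through 10 genes listed by name, namely Mmp2, Mmp3, Mmp11, Mmp14, Mmp19, Mmp23, Timp1, Timp2, Timp3 and Timp4. All 10 have a row among the 45706 genes of the count table, 6 of them proteases and 4 of them inhibitors. 3T3-L1 is a mouse fibroblast line that turns into lipid-storing adipocytes when given an adipogenic cocktail, here IBMX, insulin, dexamethasone and rosiglitazone. RNA was sequenced on day 7 of differentiation from 3 scrambled control samples and 3 RBMS1 knockdown samples, both groups having gone through the same cocktail. The controls are labelled WT and carried a scrambled control shRNA, and the knockdown samples are labelled RBMS1KD and carried an Rbms1 shRNA. The study made both as stable lines by lentiviral transduction and puromycin selection of the 1 cell line, so all samples share a parental line. The comparison asks which transcripts differ when RBMS1, an RNA-binding protein, is depleted in adipocytes. The study calls the samples of a group biological replicates, but the labels do not say that they were separate cultures, so the p-values measure the spread between these samples, which may be technical.

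MMPs are zinc-dependent endopeptidases that cut collagens, laminins, proteoglycans and other proteins around the cell. They are made as inactive proenzymes, and several are activated by other proteases such as furin, plasmin or another MMP. TIMPs block the active site of MMPs by tight binding, and in adipose tissue the balance between both groups is known for its part in matrix remodelling as fat cells enlarge.

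No member passed the test between RBMS1 knockdown and scrambled control. Of the 10 members, 9 had enough counts to be tested, Timp4 being the exception, and 0 of 9 reached an adjusted p of 0.1 or less in the quasi-likelihood test of edgeR, with p adjusted by Benjamini-Hochberg over all 11440 tested genes. Across all tested genes 140 did, or 1.22%. The number of members with an unadjusted p under 0.05 was 0, against 12.4% of all tested genes, and the number called by DESeq2 and by limma-voom was 0 as well. The groups of 3 overlapped for each of the 9 members, while they did not overlap for 18.5% of all tested genes. The log2 fold changes, knockdown minus control, were below 0 for 6 members and above 0 for 3, with a median of -0.21 beside a median of 0.0044 over all tested genes. With library sizes alone in place of TMM factors, which raised the median of all genes by 0.37, the 9 members kept these signs relative to that shift, though 4 of them (Mmp2, Mmp19, Timp1 and Timp2) changed from below to above 0. RBMS1 knockdown 1 was the lowest of the 6 samples for 6 of the 9 tested members, which is described after their values.

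The promoters of these genes are of different kinds, and the windows of Mmp3, Mmp14 and Timp2 are printed to show how a stromelysin differs in sequence from the membrane protease and inhibitor that were abundant here. Mmp13, a collagenase outside the list of members, is added because its values lay apart between the groups. Each window holds the 250 bases before the transcription start in the coding direction, from RefSeq on GRCm38.p6, which held 8 of the 10 members. Mmp3 lies at chr9:7445572-7445821 on the plus strand, Mmp13 at chr9:7272264-7272513 on the plus strand, Mmp14 at chr14:54431348-54431597 on the plus strand and Timp2 at chr11:118355412-118355661 on the minus strand. Capitals mark matches to 3 motifs, which were searched on both strands and overlapped nowhere in these windows. The AP-1 motif was spelled TGANTCA in this search. The core promoter box of the TATA type was spelled TATAAA for the same purpose, and the box bound by Sp1-like factors, the GC box, was spelled GGGCGG here.
Mmp3: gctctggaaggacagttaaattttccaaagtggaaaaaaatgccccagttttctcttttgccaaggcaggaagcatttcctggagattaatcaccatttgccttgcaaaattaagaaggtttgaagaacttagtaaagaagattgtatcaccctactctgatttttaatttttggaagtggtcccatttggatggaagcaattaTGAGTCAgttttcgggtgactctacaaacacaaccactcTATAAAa
Mmp13: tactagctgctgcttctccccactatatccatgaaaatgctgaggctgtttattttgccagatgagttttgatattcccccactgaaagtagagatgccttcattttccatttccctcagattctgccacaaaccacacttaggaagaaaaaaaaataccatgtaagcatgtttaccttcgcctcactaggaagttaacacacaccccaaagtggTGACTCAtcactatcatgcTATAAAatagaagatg
Mmp14: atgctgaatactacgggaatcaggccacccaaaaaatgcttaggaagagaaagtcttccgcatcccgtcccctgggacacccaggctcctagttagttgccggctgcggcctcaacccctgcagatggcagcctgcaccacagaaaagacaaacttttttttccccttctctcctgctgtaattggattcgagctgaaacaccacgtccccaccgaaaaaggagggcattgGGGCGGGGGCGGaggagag
Timp2: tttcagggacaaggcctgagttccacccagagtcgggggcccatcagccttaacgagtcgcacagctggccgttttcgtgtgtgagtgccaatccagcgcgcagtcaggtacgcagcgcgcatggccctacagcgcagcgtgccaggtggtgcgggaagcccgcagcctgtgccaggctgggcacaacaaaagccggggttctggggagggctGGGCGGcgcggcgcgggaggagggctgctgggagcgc
The Mmp3 window held an AP-1 motif starting 46 bases and a TATA box starting 7 bases before the start, and the Mmp13 window held them at 35 and 16 bases. Of all 32851 windows of this length, 6.75% held the AP-1 motif, 12.4% the TATA box and 32.7% the GC box. The Mmp14 window held 2 adjoining GC boxes, and the Timp2 window held 1, with neither of the other motifs. Mmp11, Timp1 and Timp3 also held GC boxes alone, and the windows of Mmp23 and Timp4 held none of these letters. The GC content was 37.6% for Mmp3, 40.4% for Mmp13, 55.2% for Mmp14 and 68.0% for Timp2, against a median of 52.4% over all windows. A match describes the letters and is not a measured binding site.

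The 6 libraries held between 3142695 and 11073098 estimated counts. Levels are given as CPM, the counts scaled to the effective library size, which is the total times a TMM factor that ranged from 0.642 to 1.23, and 3 counts, taken as the limit of detection, correspond to 0.220 to 1.49 CPM (counting error only). Scrambled control 2 was the shallowest library, and 43.0% of its counts came from genes derived from ribosomal RNA against 8.12% to 17.8% in the others. Rbms1 itself stood at 113, 102 and 99.6 CPM in scrambled control 1, 2 and 3 and at 49.2, 61.4 and 84.0 CPM in RBMS1 knockdown 1, 2 and 3. Its log2 fold change was -0.69 (adjusted p = 0.185, edgeR), so the samples lay on the labelled sides but the change missed the threshold. These values are of RNA, and at the protein level the study reports the knockdown by immunoblot. The labels call the cells fibroblasts. The summed level of 13 adipocyte markers was 23706 to 26821 CPM in the controls and 22165, 12157 and 14506 CPM in RBMS1 knockdown 1, 2 and 3, with 12 of 12 tested markers below 0 and Retn alone called lower (adjusted p = 0.0967, edgeR). That call was lost with 12 of 19 other settings. Of 8 macrophage markers, 3 (Adgre1, Ptprc and Mrc1) had no count, and the list summed to 2.89 to 5.46 CPM in the controls and 4.89 to 9.69 CPM in the knockdown. The 5 endothelial markers summed to at most 1.99 CPM, with Kdr at 0.

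To compare genes with each other, CPM were divided by the length of the longest transcript in kilobases. Mmp2 was the most abundant member at 119 ± 28.0 CPM per kilobase (SD, n = 6), above the next member in 6 of 6 samples. Mmp14 (48.4 ± 14.7) and Timp2 (48.3 ± 17.2 CPM per kilobase) followed and could not be ordered, since Mmp14 was above Timp2 in 3 of 6 samples. Mmp11 at 35.3 ± 16.9 CPM per kilobase and Mmp19 at 32.8 ± 5.03 CPM per kilobase came next, and Timp2 was above Mmp11 in 4 of 6 samples and Mmp11 above Mmp19 in 3 of 6. Timp1 (12.5 ± 5.27), Mmp23 (6.24 ± 3.94), Timp3 (3.10 ± 1.96) and Mmp3 (1.55 ± 0.567 CPM per kilobase) formed the lower end, and Timp4 averaged 0.0874 CPM per kilobase. The place of Mmp14 depended on the length used. With the union of all exons its mean fell to 26.3 CPM per kilobase, below the means of Mmp19 and Mmp11, while Timp2 stood second at 46.0 CPM per kilobase. Mmp11 could not be ordered against its neighbours there, since Mmp19 was above Mmp11 in 3 of 6 samples and Mmp11 above Mmp14 in 3 of 6.

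**Figure D1:**
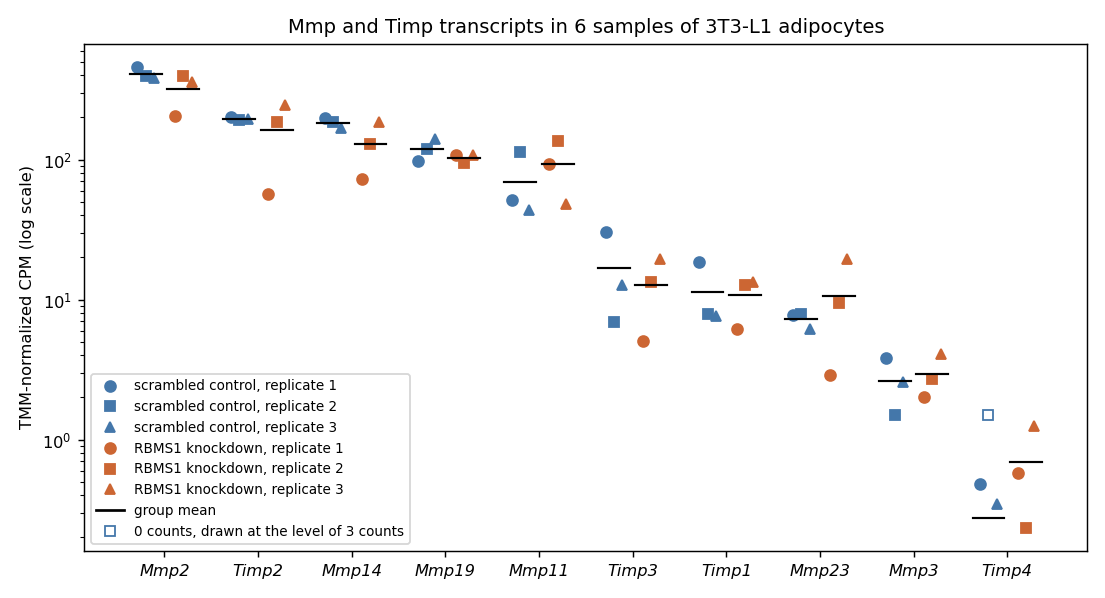
TMM-normalized CPM (log axis) of the 10 members in each of the 6 samples, with circles, squares and triangles for replicates 1, 2 and 3, black lines for group means and an open square for a sample with 0 counts. Mmp2 lies highest, at 204 to 459 CPM, and RBMS1 knockdown 1 is the lowest of the 6 samples for 6 of the 9 tested members.

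Mmp2 (ENSMUSG00000031740, GRCm38 chr8:92827291-92853420, plus strand) encodes gelatinase A, which cuts denatured collagen and the type IV collagen of basement membranes. Its level was 459, 398 and 380 CPM in scrambled control 1, 2 and 3 and 204, 397 and 359 CPM in RBMS1 knockdown 1, 2 and 3. RBMS1 knockdown 1 lay far below the rest, and the other two knockdown samples lay within or just below the control range. The log2 fold change was -0.36 ± 0.24 (SE, 95% interval -0.90 to 0.17, adjusted p = 0.579, edgeR), an interval that spans a fold of 0.535 to 1.13. Most genes on chromosome 8 were lower in the knockdown samples, with a median log2 fold change of -0.38 over 624 tested genes and 90.1% of them below 0, against a median of 0.021 elsewhere. With each sample's chromosome medians removed, the log2 fold change of Mmp2 was 0.030.

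Mmp14 (ENSMUSG00000000957, chr14:54431612-54445364, plus strand) encodes the membrane-anchored MT1-MMP, a pericellular collagenase that activates the Mmp2 proenzyme with the help of TIMP2. Its level was 199, 186 and 167 CPM in the controls and 72.7, 130 and 185 CPM in the knockdown samples, in replicate order. RBMS1 knockdown 1 and 2 lay below all 3 controls, and RBMS1 knockdown 3 lay among them. The log2 fold change was -0.51 ± 0.28 (SE, 95% interval -1.15 to 0.13, adjusted p = 0.508, edgeR). It was -0.86 without RBMS1 knockdown 3 (adjusted p = 0.181) and -0.21 without RBMS1 knockdown 1 in the same test.

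Mmp11 (ENSMUSG00000000901, chr10:75923222-75936496, minus strand) encodes stromelysin-3, which is activated inside the cell by furin. Its level was 51.1, 113 and 43.9 CPM in the controls and 92.7, 136 and 48.4 CPM in the knockdown samples. It was the most uneven of the abundant members within the controls, with scrambled control 2 above 2 of the 3 knockdown samples. Its log2 fold change was 0.42 ± 0.41 (SE, adjusted p = 0.738, edgeR), and leaving out 1 sample moved it between 0.044 (without RBMS1 knockdown 2) and 0.95 (without scrambled control 2). Mmp11 shares 155 bases of exon with Chchd10 on the opposite strand, and Chchd10 held 181 counts over the 6 samples against 3268 for Mmp11.

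Mmp19 (ENSMUSG00000025355, chr10:128790910-128800824, plus strand) encodes a protease that cuts basement membrane components. It was the steadiest of the listed Mmp members in the knockdown group, at 97.6, 120 and 141 CPM in the controls and 108, 94.8 and 108 CPM in the knockdown samples. All 3 knockdown values lay at the lower end of the control range or just below it. Its log2 fold change was -0.21 ± 0.17 (SE, 95% interval -0.59 to 0.17, adjusted p = 0.668, edgeR), with -0.069 without scrambled control 3 and -0.33 without scrambled control 1. Mmp19 shares 789 bases of exon with Tmem198b on the opposite strand, which held 546 counts against 4697 for Mmp19.

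The remaining proteases were scarce. Mmp23 (ENSMUSG00000029061, chr4:155650655-155653384, minus strand) encodes a membrane-bound MMP that lacks the usual cysteine switch of the prodomain. Its level was 7.69, 7.94 and 6.19 CPM in the controls and 2.88, 9.47 and 19.5 CPM in the knockdown samples, a 1.28-fold range within the controls and a 6.79-fold range within the knockdown. The knockdown samples thus lay on both sides of the controls, and the log2 fold change was 0.57 ± 0.55 (SE, 95% interval -0.66 to 1.80, adjusted p = 0.728, edgeR). Without RBMS1 knockdown 1 it was 1.02 (adjusted p = 0.147, edgeR), the lowest adjusted p of any member over all 20 fits, and without RBMS1 knockdown 3 it was -0.21. Mmp3 (ENSMUSG00000043613, chr9:7445822-7455975, plus strand) encodes stromelysin-1, which cuts many matrix proteins and activates other proenzymes. It was present at 3.85, 1.49 and 2.58 CPM in the controls and 2.01, 2.69 and 4.11 CPM in the knockdown samples, or between 3 and 56 counts per library. The ranges of the groups overlapped, with a log2 fold change of 0.088 ± 0.47 (SE, 95% interval -0.96 to 1.14, adjusted p = 0.960, edgeR).

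Timp2 (ENSMUSG00000017466, chr11:118301069-118355740, minus strand) encodes the inhibitor that also bridges the Mmp2 proenzyme to MT1-MMP at the cell surface. Its level was 200, 191 and 195 CPM in the controls and 57.1, 185 and 248 CPM in the knockdown samples. The controls agreed within a 1.05-fold range, while the knockdown samples spread over a 4.34-fold range with values below and above every control. The group means were 195 ± 4.74 CPM and 163 ± 97.0 CPM (SD, n = 3 each). The log2 fold change was -0.26 ± 0.41 (SE, 95% interval -1.17 to 0.66, adjusted p = 0.847, edgeR), -0.69 without RBMS1 knockdown 3 and 0.16 without RBMS1 knockdown 1.

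Timp3 (ENSMUSG00000020044, chr10:86300372-86349506, plus strand) encodes the inhibitor that stays bound to the matrix and also blocks several ADAM and ADAMTS proteases. Its level was 30.5, 6.95 and 12.7 CPM in the controls and 5.03, 13.3 and 19.5 CPM in the knockdown samples. Scrambled control 1 was the highest and RBMS1 knockdown 1 the lowest, and RBMS1 knockdown 2 and 3 lay above scrambled control 2 and 3. The log2 fold change was -0.43 ± 0.55 (SE, adjusted p = 0.804, edgeR) and turned to 0.33 without scrambled control 1. Timp1 (ENSMUSG00000001131, chrX:20870166-20874735, plus strand) encodes a secreted inhibitor that acts on most soluble MMPs and weakly on membrane-bound ones. Its level was 18.4, 7.94 and 7.57 CPM in the controls and 6.18, 12.7 and 13.4 CPM in the knockdown samples. Here too scrambled control 1 was the highest and RBMS1 knockdown 1 the lowest, and the log2 fold change of -0.091 ± 0.41 (SE, adjusted p = 0.953, edgeR) turned to 0.49 without scrambled control 1.

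Timp4 (ENSMUSG00000030317, chr6:115241892-115252205, minus strand), an inhibitor known from adipose tissue and heart, was barely present. It had 3, 0 and 2 counts in the controls and 4, 2 and 17 counts in the knockdown samples, 28 in all, and it did not pass the filter on low counts, so no fold change is given. The limit of detection in scrambled control 2, the library with 0 counts, was 1.49 CPM. Timp1, Timp3 and Timp4 each lie within a synapsin gene on the opposite strand. Syn2, around Timp4, held 1214 counts and shares 90 exonic bases with it, whereas Syn3, around Timp3, held 3 counts, and Syn1 shares no exonic base with Timp1. The libraries were made with a stranded kit, but the strand setting of the counting is not given in the sources used here.

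**Figure D2:**
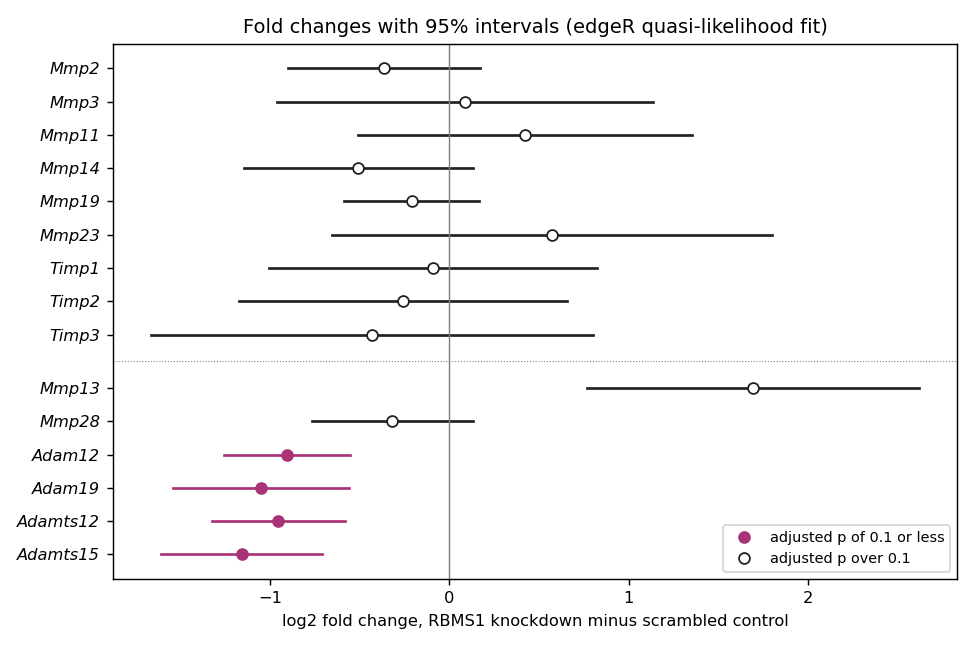
Log2 fold changes (RBMS1 knockdown minus scrambled control) with 95% intervals from edgeR for the 9 tested members above the dotted line and for 6 further proteases below it, filled where the adjusted p was 0.1 or less. The intervals of all 9 members cross 0, and those of the 4 called ADAM and ADAMTS genes lie below it.

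Ratios of counts within a library do not depend on the scaling between libraries. The ratio of Mmp2 to Timp2 was 2.29, 2.09 and 1.95 in the controls and 3.57, 2.15 and 1.45 in RBMS1 knockdown 1, 2 and 3. The ratio of Mmp14 to Timp2 was 0.994, 0.974 and 0.859 in the controls and 1.27, 0.704 and 0.748 in the knockdown samples. In both ratios the knockdown samples lay above and below the controls. The ratio of Mmp2 to Mmp14 was 2.31, 2.14 and 2.27 in the controls and 2.80, 3.05 and 1.94 in the knockdown samples, above all controls in 2 of them. Summed over the members, Mmp counts were 3.28, 4.02 and 3.44 times the Timp counts in the controls (3.58 ± 0.388, SD, n = 3) and 7.00, 3.65 and 2.57 times in the knockdown samples (4.41 ± 2.31). None of these 4 ratios separated the groups, and the knockdown samples spread more widely than the controls in each of them. For the ratio of Mmp2 to Timp3 the controls spread more widely instead, at 34.0 ± 21.4 against 29.6 ± 11.0 in the knockdown samples (SD, n = 3 each).

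**Figure D3:**
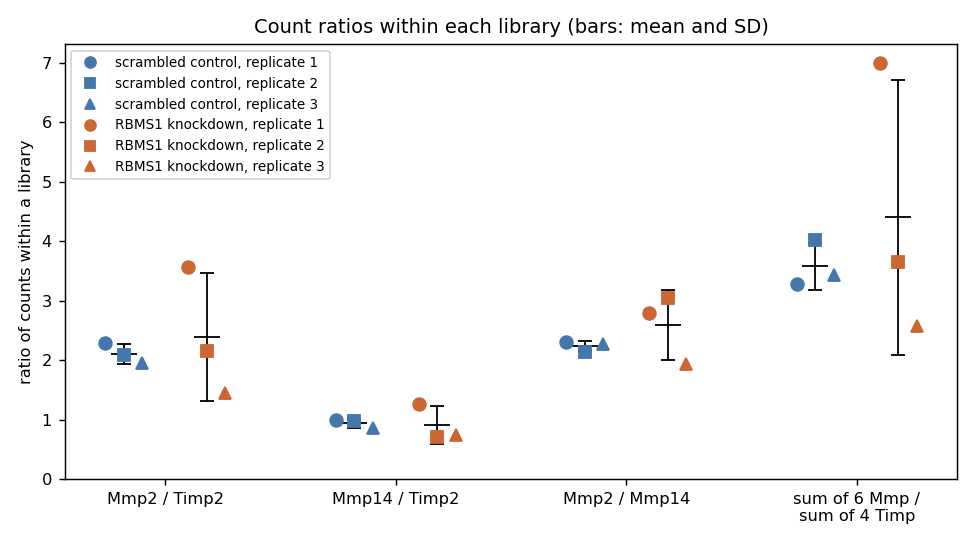
Ratios of counts within each library for Mmp2 to Timp2, Mmp14 to Timp2, Mmp2 to Mmp14 and the summed 6 Mmp to the summed 4 Timp members, with a point per sample and the group mean with its SD (n = 3). RBMS1 knockdown 1 has the highest summed ratio, at 7.00, and RBMS1 knockdown 3 the lowest, at 2.57.

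RBMS1 knockdown 1 had low levels of most of these genes. It was the lowest of the 6 samples for Mmp2, Mmp14, Mmp23, Timp1, Timp2 and Timp3, 6 of 9 tested members, whereas it was the lowest for 20.1% of all tested genes. It was also the lowest for 5 of 9 tested other matrix proteases, 6 of 10 AP-1 and ETS factors, 5 of 11 ADAMTS genes, 9 of 20 matrix substrates, 4 of 8 MMP activators and inhibitors outside the Timp family, 2 of 4 plasminogen genes and 3 of 9 ADAM genes. By contrast, it was the lowest for 0 of 2 tested other MMP genes, 0 of 2 macrophage markers and 0 of 12 adipocyte markers. On the log2(CPM + 0.5) scale it lay below the median of the other 5 samples by a difference of -1.76 for Timp2, -1.34 for Mmp14, -1.32 for both Mmp23 and Timp3, -0.99 for Timp1 and -0.96 for Mmp2. Only 1.60% of all tested genes lay as low as Timp2 by this measure. The difference was -0.34 for Mmp3 and -0.0012 for Mmp19, and for Mmp11 RBMS1 knockdown 1 lay above the median of the other 5 samples by 0.85. The median over the 9 tested members was -0.99, beside -0.0063 over all tested genes. The members also spread more within the knockdown group, with a median SD on the log2 scale of 0.678 against 0.267 in the controls, while the corresponding medians over all genes were 0.256 and 0.241. By count, however, 5 of 9 members had the larger SD in the knockdown, close to the 52.4% of all tested genes.

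Markers of fibroblasts and preadipocytes, the cells that 3T3-L1 adipocytes come from, moved with this sample. Between the groups, 0 of them were called by edgeR and limma-voom and 1 by DESeq2, with 2 at an unadjusted p under 0.05. All 11 of the 11 tested markers were lowest in RBMS1 knockdown 1, and the list of 12 summed to 4070 CPM there, against 8300 to 9302 CPM in the controls and 8900 and 8414 CPM in RBMS1 knockdown 2 and 3. The adipocyte markers had the opposite order within the knockdown, RBMS1 knockdown 1 being the highest of the 3. Their part in the member values was not tested. In bulk samples fewer cells of a type and less RNA per cell cannot be told apart. Without RBMS1 knockdown 1, the log2 fold changes of the members were -0.12 for Mmp2, -0.21 for Mmp14, -0.23 for Mmp19, 0.42 for Mmp11, 1.02 for Mmp23, 0.30 for Mmp3, 0.19 for Timp1, 0.16 for Timp2 and -0.050 for Timp3. In that fit 0 members were called, whereas the number of genes called among all tested rose from 140 to 696.

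**Figure D4:**
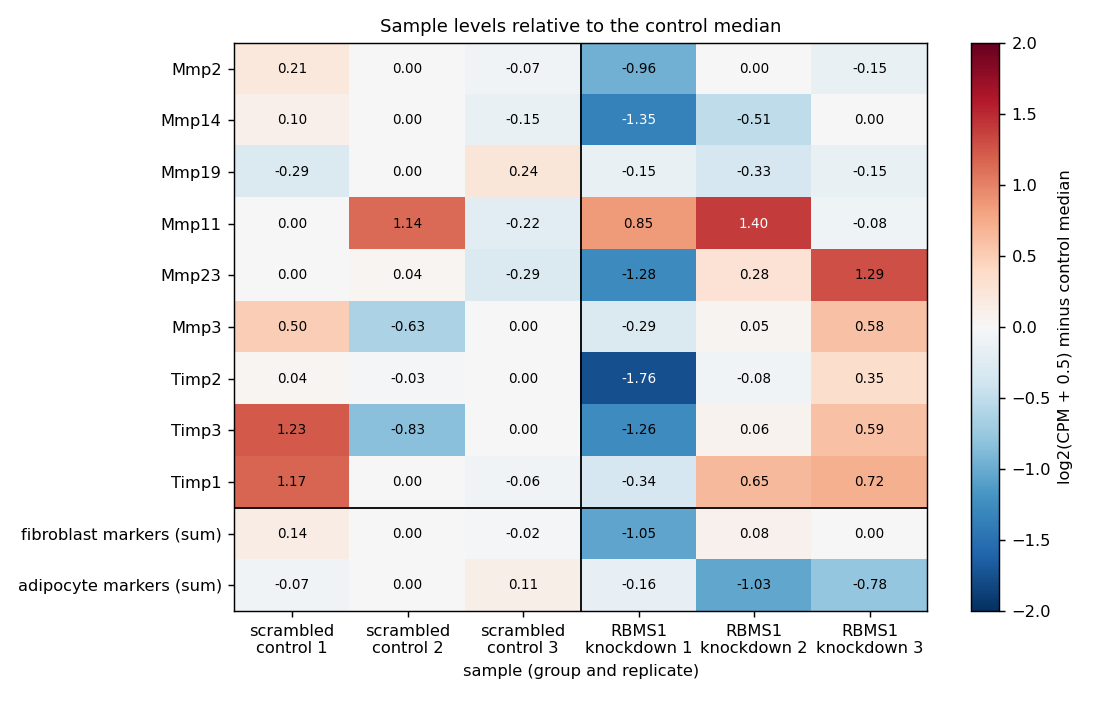
Log2(CPM + 0.5) of the 9 tested members in each of the 6 samples, minus the median of the controls, above the same difference for the summed CPM (no 0.5 added) of the fibroblast and of the adipocyte markers. RBMS1 knockdown 1 is at -1.76 for Timp2 and -1.05 for the fibroblast markers, while RBMS1 knockdown 2 and 3 are at -1.03 and -0.78 for the adipocyte markers.

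**Figure D5:**
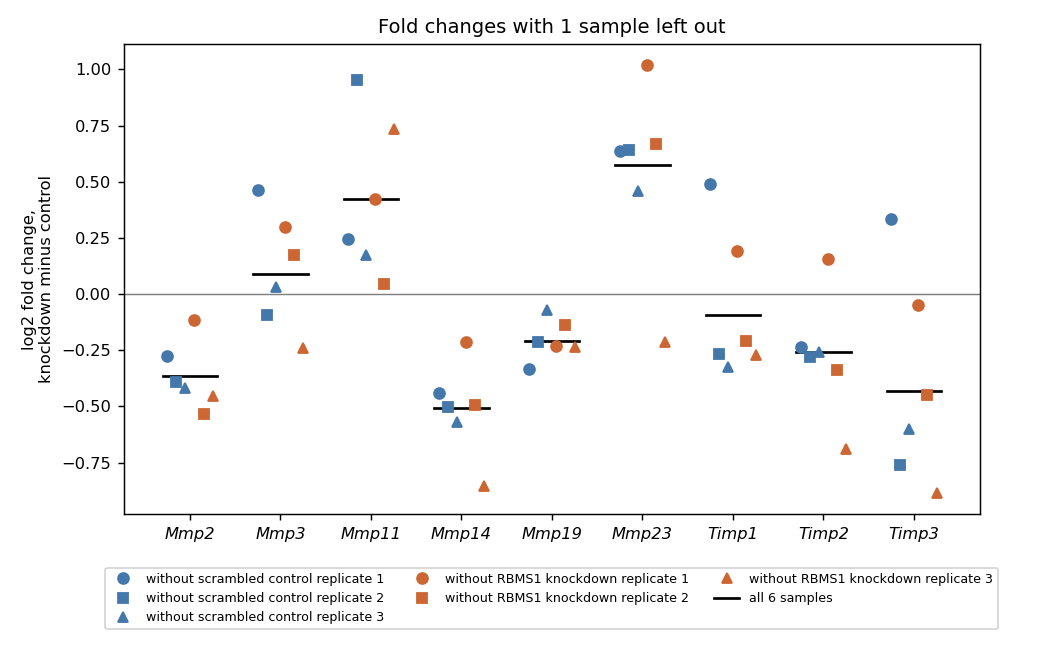
Log2 fold change (knockdown minus control) of the 9 tested members in the fit of all 6 samples (black lines) and with each sample left out (points, coloured by the group of the sample left out). Leaving out 1 sample moves Mmp23 between -0.21 and 1.02 and turns Timp2 from -0.26 to 0.16.

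Of the remaining 17 MMP genes, 6 had no count, and 2, Mmp13 and Mmp28, passed the filter on low counts. Neither was called by edgeR, with 1 of them at an unadjusted p under 0.05, 1 called by DESeq2 and 0 by limma-voom. Mmp13 encodes collagenase-3, which cuts fibrillar collagen, and lies with Mmp3 in the MMP cluster on chromosome 9. Its level was 2.40, 0.993 and 1.72 CPM in the controls and 6.18, 7.48 and 4.33 CPM in the knockdown samples, so every knockdown sample lay above every control. Its log2 fold change was 1.69 ± 0.41 (SE, 95% interval 0.77 to 2.62, adjusted p = 0.129, edgeR), over the threshold, and it passed with DESeq2 (adjusted p = 0.0781), without RBMS1 knockdown 1 (adjusted p = 0.0949, edgeR) and with library sizes alone (adjusted p = 0.0885, edgeR), where its log2 fold change of 1.99 includes the shift of all genes. With the other 16 settings it missed the threshold, with adjusted p up to 0.383. The controls held 27 counts of Mmp13 in all. Mmp28 encodes epilysin, a secreted MMP. It stood at 34.8, 32.3 and 27.2 CPM in the controls and 30.5, 24.4 and 20.7 CPM in the knockdown samples, with a log2 fold change of -0.32 (adjusted p = 0.562, edgeR).

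Genes that activate, take up or block MMPs outside the Timp family gave 0 calls in edgeR, DESeq2 and limma-voom among 8 tested of 13, with 2 at an unadjusted p under 0.05 and a median log2 fold change of -0.15. The 3 most abundant were Lrp1, the endocytic receptor that clears proteases and their inhibitors, at a log2 fold change of -0.21 (adjusted p = 0.757, edgeR), Bsg, which encodes the MMP inducer basigin, at -0.57 (adjusted p = 0.538, edgeR) and Itgav, the integrin alpha V chain, at 0.43 (adjusted p = 0.396, edgeR). Without RBMS1 knockdown 1, Bsg (-0.97, adjusted p = 0.0949, edgeR) and Itgav (0.60, adjusted p = 0.0660, edgeR) passed the threshold, whereas Bsg stood at -0.28 without RBMS1 knockdown 3 and at -0.33 without scrambled control 2. The plasminogen system, whose plasmin activates several MMP proenzymes, gave 0 calls in the same 3 tools among 4 tested of 9 genes, and 0 at an unadjusted p under 0.05. Serpine2 stood at 0.33 (adjusted p = 0.772, edgeR) and the plasminogen receptor gene Plgrkt at 0.020 (adjusted p = 0.983, edgeR) on the log2 fold change scale.

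Calls appeared in the related ADAM and ADAMTS families, metalloproteases of which several are inhibited by TIMP3. Of 9 tested ADAM genes, 2 were called lower (Adam12 and Adam19) and 0 higher. Of 11 tested ADAMTS genes, 2 were called lower (Adamts12 and Adamts15) and 0 higher, where 0.909% of all tested genes were called lower. Regardless of calls, 5 ADAM genes lay below 0 and 4 above. The median log2 fold changes of the lists were -0.030 and -0.29, and 5 ADAM and 2 ADAMTS genes had an unadjusted p under 0.05. DESeq2 called 4 ADAM genes, 3 of them lower. The other 3 ADAM genes with an unadjusted p under 0.05 were named after their values were seen. Adam10 and Adam15 lay above every control in each knockdown sample, at log2 fold changes of 0.42 (adjusted p = 0.302) and 0.59 (adjusted p = 0.153) in edgeR, and Adam9 lay below every control, at -0.58 (adjusted p = 0.128, edgeR). Adam12, known for its expression in preadipocytes and muscle precursors, was at 130, 144 and 147 CPM in the controls and 83.2, 78.3 and 62.8 CPM in the knockdown samples, a log2 fold change of -0.91 ± 0.16 (SE, adjusted p = 0.0499, edgeR). Adam19, a close relative of Adam12, was at 32.9, 30.3 and 32.3 CPM in the controls and 13.5, 20.1 and 12.5 CPM in the knockdown samples, a log2 fold change of -1.05 ± 0.22 (SE, adjusted p = 0.0842, edgeR). Each knockdown sample was below each control for both genes.

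Adamts12, which cuts cartilage oligomeric matrix protein, was at 173, 208 and 227 CPM in the controls and 119, 101 and 93.9 CPM in the knockdown samples, a log2 fold change of -0.95 ± 0.17 (SE, adjusted p = 0.0499, edgeR). Adamts15, which cuts the proteoglycans versican and aggrecan, was at 19.9, 18.9 and 19.6 CPM in the controls and 8.34, 8.07 and 9.69 CPM in the knockdown samples, a log2 fold change of -1.16 ± 0.20 (SE, adjusted p = 0.0499, edgeR). All 4 genes were below every control in each of the 3 knockdown samples. They lost their calls without scrambled control 1, 2 or 3, with adjusted p from 0.123 to 0.298 in edgeR, and with library sizes alone, with adjusted p from 0.274 to 0.341 and log2 fold changes from -0.79 to -0.53 before the shift of 0.37 common to all genes is taken off. Without RBMS1 knockdown 2, Adam12 (adjusted p = 0.157), Adamts12 and Adamts15 (both adjusted p = 0.179) lost theirs, and Adam19 lost its call without RBMS1 knockdown 3 (adjusted p = 0.147) and with chromosome medians removed (adjusted p = 0.152), all in edgeR. Over the fits with 1 sample left out, the log2 fold changes stayed between -0.98 and -0.79 for Adam12, -1.28 and -0.92 for Adam19, -1.05 and -0.86 for Adamts12, and -1.24 and -1.09 for Adamts15. Whether these changes differ from those of the MMP members was not tested.

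Other matrix proteases gave 0 calls in edgeR, DESeq2 and limma-voom among 9 tested of 15 genes, with 3 at an unadjusted p under 0.05 and a median log2 fold change of -0.035. The 3 most abundant were the lysosomal cathepsins Ctsd (-0.035, adjusted p = 0.955), Ctsb (-0.50, adjusted p = 0.270) and Ctsl (0.66, adjusted p = 0.284), by edgeR. Of 20 tested matrix substrates of MMPs, 2 were called lower and 0 higher, where 0.909% of all tested genes were called lower. In this list 5 had an unadjusted p under 0.05, and the median was -0.14. Nid2, the basement membrane linker nidogen-2, was at 101, 70.5 and 82.9 CPM in the controls and 25.9, 20.3 and 29.4 CPM in the knockdown samples, a log2 fold change of -1.75 ± 0.20 (SE, adjusted p = 0.0125, edgeR). It was called in all 6 fits with 1 sample left out. Lum, which encodes the collagen-binding proteoglycan lumican, was at 30.0, 40.2 and 47.0 CPM in the controls and 9.49, 7.01 and 14.2 CPM in the knockdown samples, a log2 fold change of -1.92 ± 0.29 (SE, adjusted p = 0.0333, edgeR). Its call was lost without scrambled control 2 (adjusted p = 0.148), scrambled control 3 (adjusted p = 0.155) or RBMS1 knockdown 2 (adjusted p = 0.101), in edgeR, while its log2 fold change stayed between -2.24 and -1.70 over the 6 fits.

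Transcription factors of the AP-1 and ETS families, which bind promoters of several MMP genes, gave 0 calls in edgeR and limma-voom and 1 in DESeq2 among 10 tested of 11 genes, with 5 at an unadjusted p under 0.05. Their median log2 fold change was -0.47, with 7 below 0. The 3 most abundant were the immediate-early genes Fos, Junb and Jun. Fos was at 412, 161 and 227 CPM in the controls and 16.4, 139 and 43.2 CPM in the knockdown samples, a log2 fold change of -2.01 ± 0.65 (SE, adjusted p = 0.232, edgeR). Junb was at 395, 247 and 235 CPM in the controls and 26.3, 150 and 90.9 CPM in the knockdown samples, a log2 fold change of -1.72 ± 0.50 (SE, adjusted p = 0.187, edgeR). Jun was at 239, 127 and 179 CPM in the controls and 39.8, 124 and 57.0 CPM in the knockdown samples, a log2 fold change of -1.31 ± 0.39 (SE, adjusted p = 0.198, edgeR). All 3 were lowest in RBMS1 knockdown 1 and spread widely within the knockdown group. Without RBMS1 knockdown 2, Fos (-3.14, adjusted p = 0.0988) and Jun (-1.89, adjusted p = 0.0887) passed the threshold, and Junb passed without RBMS1 knockdown 1 (-1.28, adjusted p = 0.0381), all in edgeR.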

How the data were processed

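Total RNA from 6 samples of 3T3-L1 adipocytes was sequenced. According to the submitters' processing notes and the study's methods, reads were trimmed with Trim Galore 0.6.7, aligned to GRCm38 with STAR 2.7.10a and quantified with Salmon 1.9.0. The deposited values are estimated counts per gene, not normalized. The annotation release and strand setting are not given in the sources used here. Per sample, 3.97% to 7.78% of values deviated from a whole number by over 1e-06, so counts were rounded before the tests.

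Of 45706 genes, 26300 had no count and 11440 passed filterByExpr. They were tested in R 4.3.3 with edgeR 4.0.16 (TMM, estimateDisp, glmQLFit, glmQLFTest) on the group alone, with Benjamini-Hochberg adjustment over all of them and a threshold of 0.1, after testing the code on simulated counts. Total counts of 3142695 to 11073098 per sample set the precision. With 3 samples against 3, an exact permutation test of 1 value cannot give a p below 0.1, so no such test was run. Gene positions, lengths and GC content came from GENCODE M21 on GRCm38, which held 11402 of the tested genes.

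Alternatives were DESeq2 1.42.0 (given all genes with a count, with its own independent filtering), limma-voom 3.58.1, a robust fit, RLE size factors, library sizes alone or without ribosomal RNA genes, unrounded counts, no filter, a minimum of 1 CPM in 3 samples, a replicate block, removal of chromosome medians (chromosomes with 50 or more tested genes) or of a GC and length trend (loess span 0.3), and each sample left out. The earlier quasi-likelihood estimate was chosen after seeing the data. The members and gene lists were chosen with earlier results of these data known. Named were all members, the called genes of each list and, where a protease, substrate or factor list had none, its 3 most abundant tested genes, except for 1 gene that is not reported here. Adgre1, Ptprc, Mrc1 and Kdr are named for having no count and Rbms1 as the targeted gene, 5 named genes overlap a member by position, and 3 further ADAM genes were named after their values were seen. Marker genes in several lists count in each.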

Additional observations from a re-analysis of the deposited data

How the results depend on the processing

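No member was called in any of the 19 other settings, and of the 171 member values recomputed 158 kept their direction and their side of the threshold, while 13 changed sign with no call on either side. With library sizes alone, which moved the median of all genes by 0.37 on the log2 scale, the log2 fold changes were 0.0050 for Mmp2, 0.18 for Mmp19, 0.22 for Timp1, 0.14 for Timp2, 0.048 for Mmp28, 0.18 for Lrp1 and 0.35 for Ctsd. With chromosome medians removed they were 0.030 for Mmp2, 0.011 for Ctsd and -0.092 for Plgrkt, with the GC and length trend removed 0.061 for Timp1 and 0.029 for Ctsd, and with limma-voom -0.032 for Plgrkt. With 1 sample left out, the log2 fold changes ranged from -0.53 to -0.12 for Mmp2, -0.86 to -0.21 for Mmp14, 0.044 to 0.95 for Mmp11, -0.33 to -0.069 for Mmp19, -0.24 to 0.46 for Mmp3, -0.21 to 1.02 for Mmp23, -0.32 to 0.49 for Timp1, -0.69 to 0.16 for Timp2, -0.89 to 0.33 for Timp3, -0.17 to 0.67 for Serpine2, -0.19 to 0.28 for Plgrkt and -0.10 to 0.050 for Ctsd. The cause of these changes of sign was not tested.

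Of all tested genes, 140 were called, against 430 with DESeq2 (which also had another filter on low counts), 268 with no filter, 73 with chromosome medians removed and 12 to 696 with 1 sample left out. Of the calls, 74.3% were lower, against 33.3% with library sizes alone and 61.2% to 100% with 1 sample left out. The list counts moved as follows. Other MMP genes had 1 call with DESeq2, 1 with library sizes alone and 0 to 1 with 1 sample left out. ADAM proteases had 4 with DESeq2, 0 with library sizes alone, 1 with chromosome medians removed and 0 to 4 with 1 sample left out. ADAMTS proteases had 0 with library sizes alone and 0 to 2 with 1 sample left out. Matrix substrates had 6 with DESeq2, 4 with no filter and 1 to 5 with 1 sample left out. AP-1 and ETS factors had 1 with DESeq2, 1 with no filter and 0 to 2 with 1 sample left out. MMP activators and inhibitors outside the Timp family had 0 to 3 with 1 sample left out. Adipocyte markers had 2 with DESeq2, 0 with the robust fit, the earlier estimate, RLE size factors, library sizes alone, chromosome medians removed or the GC and length trend removed, and 0 to 8 with 1 sample left out. Fibroblast markers had 1 with DESeq2 and 0 to 2 with 1 sample left out. The cause was not tested.

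The replicate numbers did not pair the samples, since the deviations of same-numbered samples correlated at -0.14, 0.078 and -0.028 over 11440 genes. With the replicate block 39 genes were called, with 0 ADAM proteases, 0 ADAMTS proteases and 0 adipocyte markers among them. Counts were low for Mmp3, Mmp13 and Timp4, with 135, 193 and 28 over the 6 samples.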
